A study of Homo sapiens with 14 samples.

Results

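The genes described are 8 immediate early genes: EGR1, EGR2, EGR3, ARC, IER2, IER3, IER5 and NR4A1. They were taken by name, with every probe set that the platform annotation gives to 1 of these symbols. The list was made with earlier results of these data known, so counts set beside shares of all probe sets are description, not a test. Of the 8 genes, 7 had a probe set in that annotation, with 11 probe sets among the 54675 deposited. EGR2 had none and was not analysed here. A probe set was tested when 3 or more of the 14 arrays had a log2 value of 5 or higher, as 10 of the 11 did. Of these 10, 7 passed also without the HOXD13 lines, and 3 (ARC, EGR3 and the NR4A1 probe set 211143_x_at) passed only with them. Readings of 5 or higher in those lines had let these 3 in, for 211143_x_at only 5.08 in the mix and 5.12 in clone a. Counts over the HOXD13 lines are therefore given for the other 7 as well. The third NR4A1 probe set (210226_at) lay between 2.23 and 2.35 on all 14 arrays, at the floor of the background correction, and was not tested.

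The arrays measured HEK293 cells, a human embryonic kidney line, after stable transfection and selection with G418, a drug that kills cells lacking the resistance gene of the plasmid. In the HOXD9 group, 4 lines carried HOXD9 with an HA tag: a mixed population of transfected cells (mix) and clones a, b and c picked from it. Their reference was 3 arrays of cells with the HA vector alone. In the HOXD13 group, 4 lines carried HOXD13 with a V5 tag, again a mix and its clones a, b and c, beside 3 arrays of cells with the V5 vector. All 14 cultures passed through the same selection, and the clones of a gene are not independent of their mix. The vector arrays are labelled as biological replicates, but whether they came from separate transfections is not stated. The p-values therefore reflect only how far these arrays vary, which may be technical.

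Immediate early genes are transcribed within minutes of a signal such as serum, a growth factor or calcium entry, from factors already present in the cell, so that no new protein is needed. ERK signalling acts on serum response factor (SRF) and its ETS partners at CArG boxes of their promoters, and cAMP and calcium act on CREB at cAMP response elements. Their mRNAs and proteins are short-lived. EGR1 and EGR3 are zinc finger transcription factors that bind a GC-rich site. ARC is a cytoskeleton-associated protein known for synaptic plasticity in neurons, IER2 and IER5 are nuclear regulators of transcription, IER3 modulates apoptosis and ERK signalling, and NR4A1 is an orphan nuclear receptor.

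The promoters of EGR1, IER2 and IER5 are shown because these genes had the same order of HOXD13 lines with shifts of different size, large in EGR1 and IER2 and small in IER5. ARC, EGR3 and IER3 had this order too, with large shifts, but no window of theirs was examined. The windows shown are thus not a full set of the genes with this order. Each window runs from 250 bases before to 50 bases after the start site, 5′ to 3′, as given by RefSeq on GRCh38.p14. Capitals mark matches, on either strand, to the CArG box, the full cAMP response element TGACGTCA, the EGR site GCGNGGGCG and the ETS site CCGGAA. Only this form of the ETS site was searched for, so shorter ETS motifs are not marked.
EGR1, chr5:138465229-138465528, plus strand: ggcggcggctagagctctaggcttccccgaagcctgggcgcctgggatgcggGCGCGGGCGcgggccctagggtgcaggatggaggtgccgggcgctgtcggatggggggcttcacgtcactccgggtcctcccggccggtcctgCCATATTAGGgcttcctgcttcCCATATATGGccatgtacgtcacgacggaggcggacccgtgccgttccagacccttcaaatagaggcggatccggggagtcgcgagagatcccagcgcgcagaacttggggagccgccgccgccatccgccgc
IER2, chr19:13150161-13150460, plus strand: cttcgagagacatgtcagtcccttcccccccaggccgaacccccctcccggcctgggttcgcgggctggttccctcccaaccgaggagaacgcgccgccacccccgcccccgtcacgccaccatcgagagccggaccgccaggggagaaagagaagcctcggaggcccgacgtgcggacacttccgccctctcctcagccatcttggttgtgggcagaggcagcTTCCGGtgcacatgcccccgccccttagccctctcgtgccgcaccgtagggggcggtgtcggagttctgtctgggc
IER5, chr1:181088450-181088749, plus strand: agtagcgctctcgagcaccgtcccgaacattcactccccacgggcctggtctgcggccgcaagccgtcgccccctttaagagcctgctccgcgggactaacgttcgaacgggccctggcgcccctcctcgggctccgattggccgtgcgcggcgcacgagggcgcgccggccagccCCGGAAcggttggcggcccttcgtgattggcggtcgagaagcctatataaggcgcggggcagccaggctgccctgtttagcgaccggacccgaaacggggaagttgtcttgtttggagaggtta

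The EGR1 window held 2 CArG boxes, CCATATTAGG at position -105 and CCATATATGG at -83 from the start site, and 1 EGR site at -198. Of 35116 RefSeq promoter windows of this length, 454 (1.29%) held a CArG box and 11 (0.0313%) held 2 or more. EGR1 also had 2 copies of TGACG, the core of the cAMP response element, and no full element, where 24.6% and 1.85% of all windows held these motifs. A full element contains the core on both strands. IER2 had 1 such core and 1 ETS site at -26, and IER5 had 1 ETS site at -74, a motif in 17.2% of windows. Both NR4A1 windows lacked a CArG box, and the upstream one had an ETS site at -17 and CAATAAA at -164, on the other strand. An EGR site was present in 9.43% of windows. Neither the EGR1, IER2 nor IER5 window held TCGTAAA or CAATAAA, 2 motifs that HOX13 proteins bind, which occurred in 0.541% and 4% of windows. These matches describe letters, not bound sites, and an absent match says only that these letters are not in this window.

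The deposited values are GCRMA log2 values. The 7 arrays of a tag were normalized apart from the 7 of the other tag, so levels were compared only within a tag. A log2 value below 2.5, near the floor of undetected transcripts, was held by 47.9% of the vector values with the HA tag and 48.8% of those with the V5 tag, and folds of dim probe sets depend on the background correction. Each transgene was detected by at least 1 probe set. The HOXD9 probe set 205605_at ran between 6.65 and 7.76 over the HOXD9 lines, against 2.52 to 2.83 over the HA vectors. The other, 205604_at, ran between 4.33 and 4.54 over the HOXD9 lines, against 4.20 to 4.24 over the HA vectors. Its log2 fold change was 0.19 (adjusted p = 0.653 in limma). The HOXD13 probe set brightest in the HOXD13 lines ran between 12.24 and 12.59 over them, against 6.84 to 7.01 over the V5 vectors. Of the 6 HEK293 markers examined, 4 were at least 5 on every array, while NEFM and PAX2 were not. Of 12 markers of fibroblasts, endothelium, blood and squamous epithelium, 1, the collagen gene COL1A1, reached 5 on each array. The mean log2 value of the 6 HEK293 markers was 9.02 for the HOXD13 mix, 9.15 for clone a, 9.23 for clone b and 8.56 for clone c, against 8.82 to 8.87 in the V5 vectors, the order of lines that most of the immediate early genes had too. The part of this in their values was not tested. Not every marker had this order: VIM shifted by -0.18 for the mix, -0.19 for clone a, -0.16 for clone b and -0.46 for clone c. Of the 4 HEK293 markers tested 0 passed in the HOXD13 comparison, against 2.46% of all genes called higher and 7.04% called lower. Without clone c 3 rose, where 18.5% of all genes did. As these are bulk samples, fewer cells of a type and less RNA per cell cannot be told apart.

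In the HOXD13 comparison EGR1, EGR3, ARC, IER2 and IER3 read higher than every V5 vector array in 3 lines, the mix, clone a and clone b, and within or below the vector range in clone c. ARC was the 1 member called, with a log2 fold change of 3.37. IER5 shifted by at most 0.29 from the vector mean in any line, and the leading NR4A1 probe set by 0.65 in the mix and 0.53 in clone a. Over the 10 tested probe sets 1 was called higher, 0 were called lower and 9 did not pass, against 2.49% called higher and 6.19% called lower among all 19816 probe sets tested, where a call is an adjusted p under 0.05 in limma. The median log2 fold change of the 10 was 1.18, beside -0.02 over all probe sets. Over the 7 that passed the filter without the HOXD13 lines 0 were called, and their median was 1.16.

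ARC had the largest change. It read 9.04 for the HOXD13 mix, 9.27 for clone a, 10.33 for clone b and 4.97 for clone c, against 4.95, 5.09 and 5.06 in the V5 vectors. The mix and clones a and b stood far above every vector array, and clone c lay within their range. The fitted log2 fold change of 3.37 (SE 0.88, 95% interval 1.47 to 5.27, adjusted p = 0.0339) is 10.3-fold. It ranked 5 among the rises of all 19816 probe sets. ARC passed the filter only with the HOXD13 lines, so this p is not independent of the high readings, and with no filter the adjusted p was 0.137. The vector level is dim, so the fold depends on the background correction, and the SD was 2.35 over the 4 HOXD13 lines and 0.07 over the 3 V5 vectors. The call ended in 9 of the 14 fits that left out 1 array, namely without the HOXD13 mix, clone a or clone b or without any 1 of the 6 vector arrays (adjusted p 0.0525 to 0.116). It held without HOXD13 clone c (adjusted p = 1.67e-06) or any 1 HOXD9 line, and ended with the 7 arrays of the V5 set alone (adjusted p = 0.139).

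The EGR genes had the same order of lines. The leading probe set of EGR1 (201694_s_at), that with the highest mean of its gene, read 10.39 for the HOXD13 mix, 10.84 for clone a, 11.07 for clone b and 8.83 for clone c, against 9.07, 9.06 and 9.03 in the V5 vectors. Clone c lay below all 3 vector arrays and the other lines lay above them. Its log2 fold change was 1.23 (SE 0.38, 95% interval 0.40 to 2.06, adjusted p = 0.0652), which did not pass. The other EGR1 probe sets had the same order: the shift from the vector mean was 1.77 for the mix, 2.28 for clone a, 2.57 for clone b and -0.24 for clone c for 201693_s_at, and 1.40, 1.98, 2.03 and -0.75 in these lines for 227404_s_at. Their adjusted p-values were 0.0616 and 0.167, so the 3 probe sets of EGR1 shared a direction in each line, and none passed.

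EGR3 was dim. It read 5.56 for the HOXD13 mix, 6.26 for clone a, 6.32 for clone b and 4.13 for clone c, against 4.13, 4.57 and 4.42 in the V5 vectors. Only the mix and clones a and b were above the filter value of 5, and clone c was level with the lowest vector array. The log2 fold change was 1.19 (SE 0.39, adjusted p = 0.0763). These 3 arrays are the ones through which EGR3 passed the filter, so its p supports nothing by itself.

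IER2 and IER3 had this order too. IER2 read 11.54 for the HOXD13 mix, 11.65 for clone a, 11.91 for clone b and 9.77 for clone c, against 10.04, 10.07 and 10.09 in the V5 vectors. IER3 read 8.63 for the mix, 8.89 for clone a, 9.16 for clone b and 6.25 for clone c, against 7.06, 6.82 and 6.72 in the V5 vectors. For both genes the mix and clones a and b were above every vector array and clone c was below every one. The log2 fold changes were 1.15 for IER2 (SE 0.38, adjusted p = 0.0763) and 1.37 for IER3 (SE 0.50, adjusted p = 0.109). IER5, bright in all cells, read 12.73 for the mix, 12.95 for clone a, 12.97 for clone b and 12.47 for clone c, against 12.69, 12.68 and 12.66 in the V5 vectors. It had the same order of lines over a narrower range, with a log2 fold change of 0.10 (95% interval -0.29 to 0.50, adjusted p = 0.785).

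NR4A1 had another order of lines. Its leading probe set (202340_x_at) read 6.19 for the HOXD13 mix, 6.07 for clone a, 5.63 for clone b and 5.54 for clone c, against 5.46, 5.61 and 5.55 in the V5 vectors. Here the mix was highest and clone b was near the vectors. The fold change was 0.32 on the log2 scale (95% interval -0.05 to 0.69, adjusted p = 0.268), and that of 211143_x_at was 0.09 (adjusted p = 0.771). Probe sets with the suffix _x_at are built from probes that may also bind other transcripts, and both lay near the filter value, so the NR4A1 readings are uncertain.

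**Figure D1:**
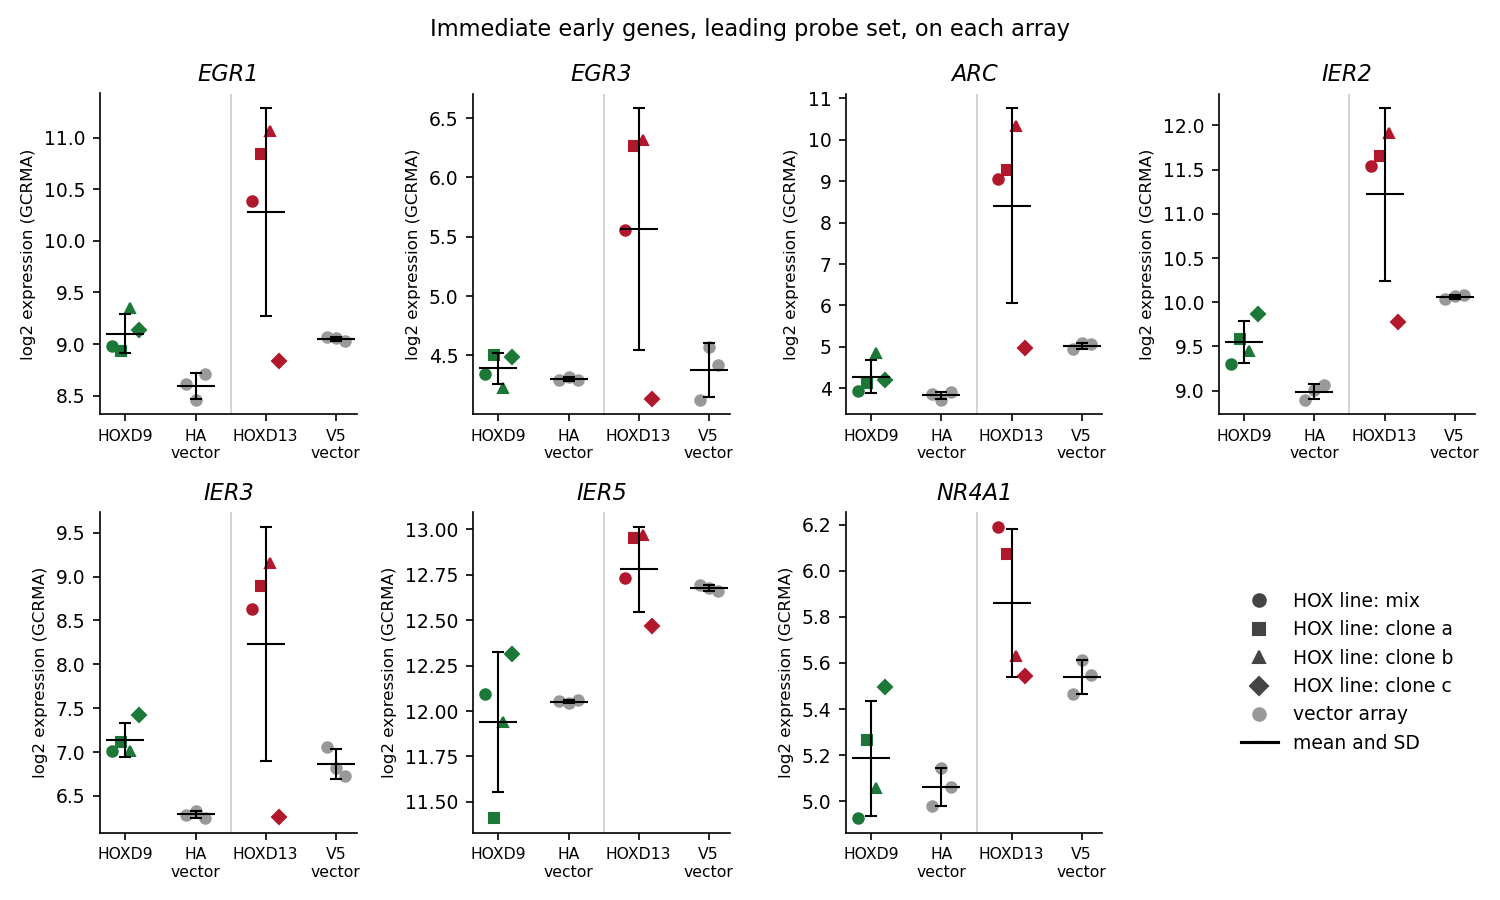
The log2 expression (y axis, a scale of its own in each panel) of the leading probe set of each measured gene is plotted for the 14 arrays by group (x axis), with the mean and SD in black; the line between HA vector and HOXD13 separates the 2 tag sets, which were normalized apart. In EGR1, EGR3, ARC, IER2 and IER3 the HOXD13 mix and clones a and b lie above all V5 vectors, while clone c lies at 8.83, 4.13, 4.97, 9.77 and 6.25, near or below them.

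Each HOXD13 line is 1 array, so the lines were described without a test. A probe set was counted in a line when it lay at least 1 log2 unit from the vector mean and outside the range of the 3 vector arrays. In the mix 7 of the 10 members were counted higher, against 1.9% of all tested probe sets. In clone a 7 were counted, against 4.24%, and in clone b 7 were counted, against 5.64%. These were the same 7 probe sets in each line, those of EGR1, EGR3, ARC, IER2 and IER3. Over the 7 probe sets that passed the filter without the HOXD13 lines, 5 were counted in each of these 3 lines and 0 in clone c. In clone c 0 of 10 were counted higher, against 3.79%, and 0 were counted lower, against 0.742%. No member was counted lower in the other lines either, where 1.74% of all probe sets were in the mix, 3.62% in clone a and 4.95% in clone b. The median member shift was 1.37 for the mix, 1.84 for clone a, 1.98 for clone b and -0.23 for clone c. Over the 7 that passed the filter without the HOXD13 lines it was 1.40, 1.79, 2.015 and -0.24 in these lines. The medians of all probe sets lay between -0.08 and -0.02.

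Clone c was the lowest of the 4 HOXD13 lines for 10 of 10 members, as it was for 45.9% of all tested probe sets. The full order, clone b above clone a above mix above clone c, held for 8 of 10 members and for 24.3% of all. Among the 7 that passed without the HOXD13 lines, clone c was lowest for 7 and the full order held for 6. The mix and clones a and b were all above the 3 V5 vectors for 9 of 10 members, against 30.4% of all. Among the 7 that passed without the HOXD13 lines they were so for 7. All 4 HOXD13 lines were above all 3 V5 vectors for 0 of 10 members, against 8.6%, and all 4 below for 0, against 18.1%.

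**Figure D2:**
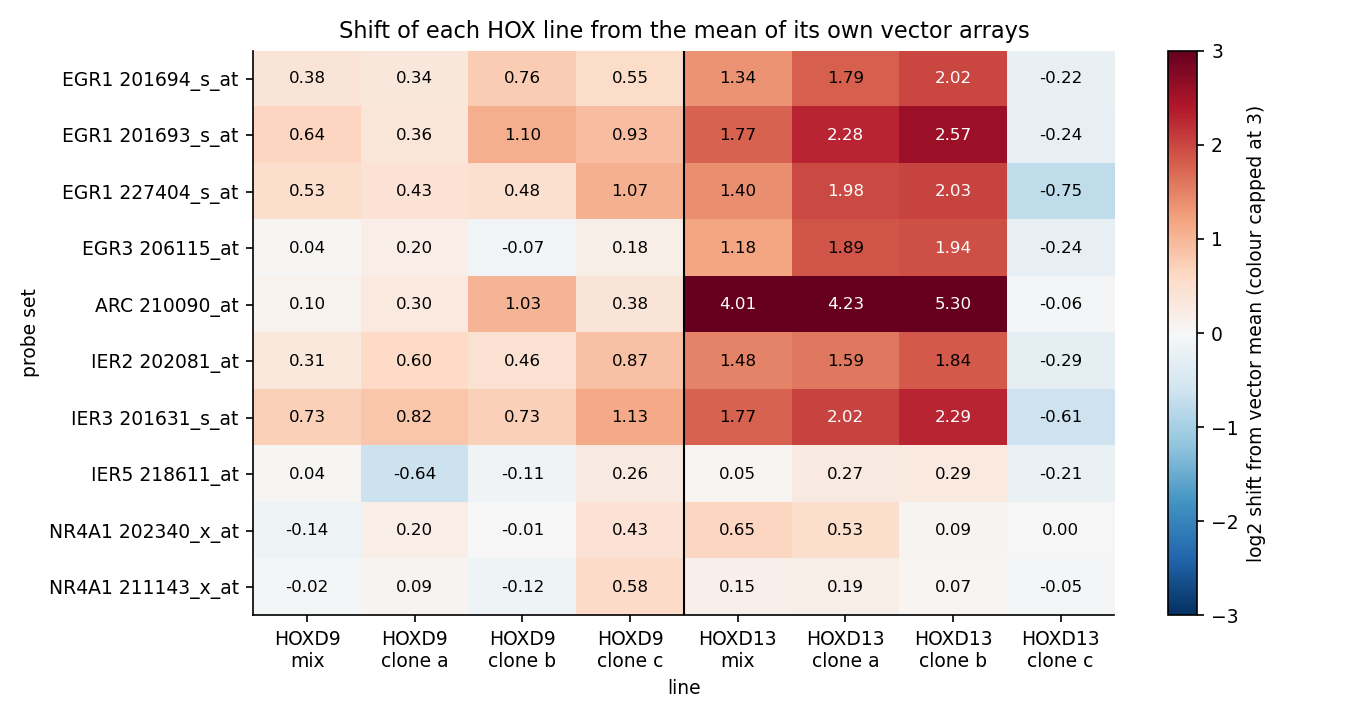
Each cell gives the log2 shift of 1 HOX line (columns) from the mean of the 3 vector arrays of its own tag, for the 10 tested member probe sets (rows); red is higher and blue lower, with the colour capped at 3. The ARC row holds the largest shifts, 4.01, 4.23 and 5.30 in the HOXD13 mix and clones a and b, and the column of HOXD13 clone c runs from -0.75 to 0.00.

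**Figure D3:**
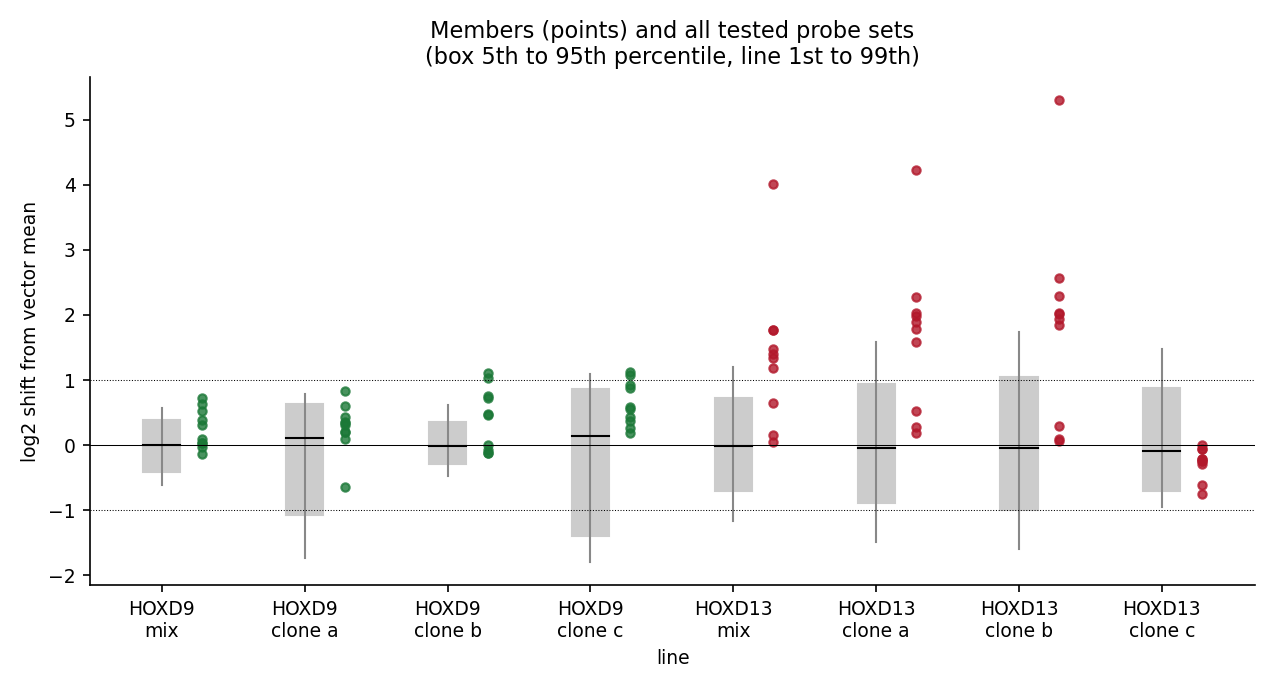
Points give the log2 shift (y axis) of the 10 tested members in each line (x axis), beside the spread of all 19816 tested probe sets, with a box from the 5th to the 95th percentile and a line from the 1st to the 99th. In the HOXD13 mix and clones a and b, 7 members lie past the dotted line at 1, and in HOXD13 clone c 1 member lies above 0, by 0.0042, and 9 lie below.

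The number of calls depended on clone c. In the fit without it 7 of 10 members were called higher and 0 lower, with 17.3% of all tested probe sets called higher and 15.5% called lower. The 7 were the 3 probe sets of EGR1 and those of EGR3, ARC, IER2 and IER3, of which 5, without EGR3 and ARC, are among the 7 that passed the filter without the HOXD13 lines. ARC then had a log2 fold change of 4.51 (22.8-fold, adjusted p = 1.67e-06). The leading EGR1 probe set had 1.71 (adjusted p = 1.52e-05), EGR3 1.67, IER2 1.64 and IER3 2.03, with adjusted p-values between 3.26e-06 and 3.99e-05 for these 4. IER5, with 0.21, and NR4A1, with 0.42 and 0.13, did not pass. Clone c was also the lowest line of every member, so these calls show how far the result depends on 1 array and are no separate evidence.

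The array of clone c differed from the others in more than these genes. The 3 prime minus 5 prime difference of the ACTB control probe sets, which grows as RNA is shortened, was 2.13 for the HOXD13 mix, 2.01 for clone a, 1.82 for clone b and 2.80 for clone c, against 2.19 to 2.26 in the V5 vectors. That of GAPDH was 0.53, 0.57, 0.56 and 0.86 in the same lines, against 0.68 to 0.72 in the V5 vectors. The ACTB difference thus ran from low to high as most members ran from high to low. With this difference as a covariate over all 14 arrays, 7 of 10 members were called higher, against 9.9% of all probe sets. Of the 7 that passed the filter without the HOXD13 lines, 5 were called. The log2 fold changes were 3.23 for ARC, 1.17 for the leading EGR1 probe set, 1.12 for EGR3, 1.09 for IER2 and 1.28 for IER3. The probe sets called were the same as without clone c. Clone c had the highest ACTB difference of the 14 arrays, so these calls too depend on 1 array and are no separate evidence. One HOXD13 probe set (236681_at) also set clone c apart, with 10.15 for the mix, 10.23 for clone a, 10.42 for clone b and 8.87 for clone c, against 8.93, 8.94 and 8.95 in the V5 vectors. The part of this probe set's level in the member values was not tested. The HOXD13 probe set 207397_s_at read 12.32, 12.55, 12.59 and 12.24 in the same lines, against 6.84 to 7.01 in the V5 vectors. For 207398_at these lines read 8.39, 8.39, 8.41 and 8.26, against 3.05 to 3.45 in the V5 vectors. By both probe sets clone c lay far above every V5 vector array.

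In the HOXD9 comparison no member passed. IER3, EGR1, IER2 and ARC lay above every HA vector array in each of the 4 lines, and EGR3, IER5 and NR4A1 did not. With limma 0 of 10 were called, where 0.0202% of all probe sets were called higher and 0.0101% lower. An unadjusted limma p under 0.05 was found for 0 of 10, against 4088 of all 19816 probe sets. The median log2 fold change was 0.48, beside 0.04 over all probe sets. All 4 HOXD9 lines were above all 3 HA vectors for 6 of 10 members, against 18% of all tested probe sets, and below for 0, against 14.2%.

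IER3 read 7.02 for the HOXD9 mix, 7.11 for clone a, 7.01 for clone b and 7.42 for clone c, against 6.29, 6.33 and 6.25 in the HA vectors. The groups did not overlap, and the log2 fold change was 0.85 (SE 0.50, 95% interval -0.24 to 1.94, adjusted p = 0.326). The SE is that of the shared spread, to which the HOXD13 lines contribute. EGR1 read 8.98 for the mix, 8.93 for clone a, 9.35 for clone b and 9.14 for clone c, against 8.61, 8.46 and 8.71 in the HA vectors, and its 3 probe sets had log2 fold changes of 0.51, 0.76 and 0.63 (adjusted p 0.36 to 0.444). IER2 read 9.30 for the mix, 9.59 for clone a, 9.45 for clone b and 9.87 for clone c, against 8.90, 9.01 and 9.06 in the HA vectors, with a log2 fold change of 0.56 (SE 0.38, adjusted p = 0.376).

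ARC read 3.93 for the HOXD9 mix, 4.13 for clone a, 4.86 for clone b and 4.21 for clone c, against 3.86, 3.73 and 3.90 in the HA vectors. All these levels were dim and under the filter value, and the highest was that of clone b. Its log2 fold change was 0.45 (SE 0.88, 95% interval -1.45 to 2.35, adjusted p = 0.76). EGR3 lay between 4.23 and 4.51 in the HOXD9 lines, against 4.29 to 4.32 in the HA vectors, so the groups overlapped. IER5 read 12.09 for the HOXD9 mix, 11.41 for clone a, 11.94 for clone b and 12.31 for clone c, against 12.05, 12.04 and 12.06 in the HA vectors, and its lines lay on both sides. The log2 fold change of IER5 was -0.11 (adjusted p = 0.708), and the leading NR4A1 probe set had 0.12 (adjusted p = 0.663).

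By line, 0 of 10 members were at least 1 log2 unit above the HA vectors in the HOXD9 mix (0.0505% of all probe sets) and 0 in clone a (0.131%). In clone b 2 were (0.187%), ARC and the EGR1 probe set 201693_s_at. In clone c 2 were (1.97%), IER3 and the EGR1 probe set 227404_s_at. No member was 1 log2 unit below in any HOXD9 line, where 0.0656% of all probe sets were for the mix, 6% for clone a, 0.0252% for clone b and 12.4% for clone c. The median member shift was 0.20 for the mix, 0.32 for clone a, 0.47 for clone b and 0.56 for clone c. Without HOXD13 clone c, whose spread enters the shared estimate, IER3 (adjusted p = 0.0216) and IER2 (adjusted p = 0.0449) passed in the HOXD9 comparison, against 2.89% of all probe sets called higher. With the 7 arrays of the HA set alone the adjusted p was 0.215 for IER3 and 0.235 for IER2. With the ACTB difference as covariate the HOXD9 effect was 0.37 for IER3, 0.19 for IER2 and 0.18 for the leading EGR1 probe set. Over all settings the adjusted p ran from 0.0216 to 0.857 for IER3 and from 0.0449 to 0.948 for IER2.

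The difference between the effects of HOXD13 and HOXD9 was tested in the same fit. With 4 lines of each gene limma called 0 of 10 members, where 1.06% of all probe sets were called higher and 5.5% lower. An unadjusted limma p under 0.05 was found for 1 of 10 members, against 4574 of all 19816 probe sets. That member was ARC, whose HOXD13 effect exceeded its HOXD9 effect by 2.92 (SE 1.24, 95% interval 0.23 to 5.61, adjusted p = 0.179). For EGR3 the difference was 1.10 (95% interval -0.09 to 2.30), and for IER3 it was 0.52 (-1.02 to 2.06). Without HOXD13 clone c 7 of 10 were called higher (7.69% of all probe sets), and 5 of the 7 that passed the filter without the HOXD13 lines. ARC then differed by 4.06 (adjusted p = 0.000129) and IER3 by 1.18 (adjusted p = 0.0024). Clone c was the lowest line of every member, so these calls are no separate evidence. ARC passed the filter only with the HOXD13 lines, so its p-values are not independent of the high readings. The HOXD13 and HOXD9 sets also differ in tag and were normalized apart, which cannot be told apart from the gene.

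**Figure D4:**
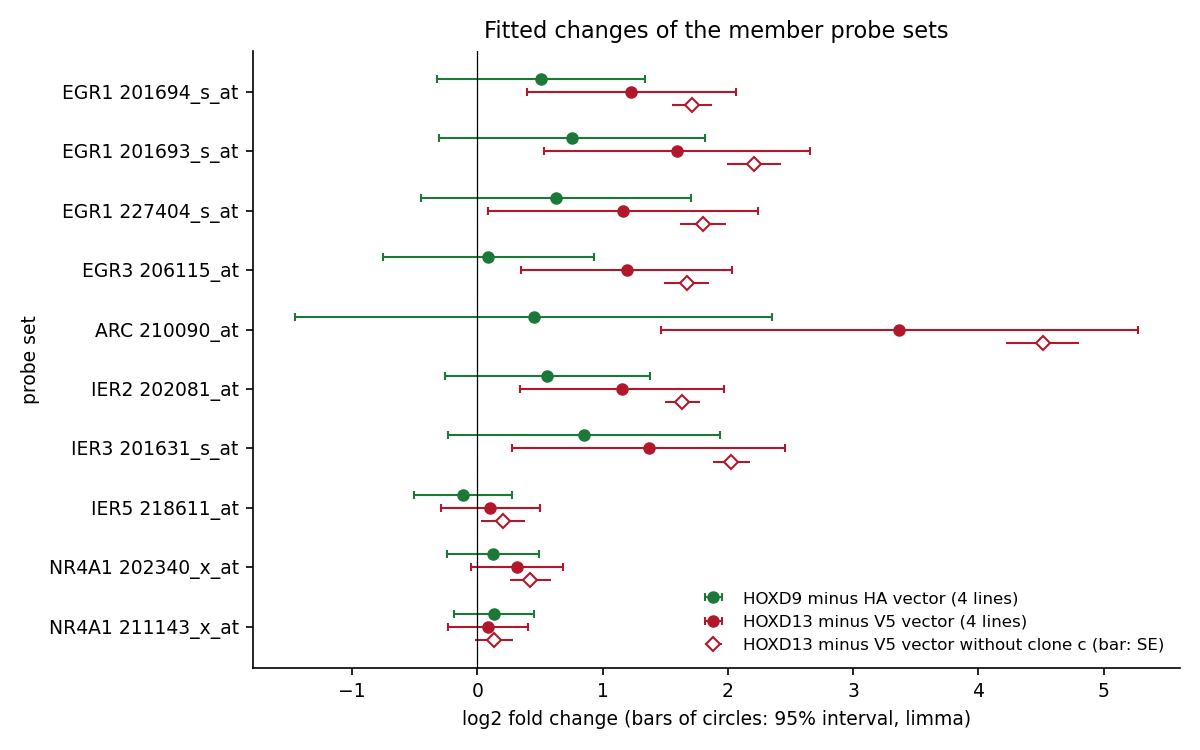
Log2 fold changes (x axis) of the 10 tested member probe sets (y axis) are shown for HOXD9 against the HA vector in green and for HOXD13 against the V5 vector in red, with 95% intervals from limma; open diamonds give HOXD13 without clone c, with the SE. ARC lies at 3.37 with all 4 HOXD13 lines and at 4.51 without clone c, and the HOXD9 intervals of all members include 0.

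Other genes of the pathway were taken from lists, each gene by its leading probe set. Of 46 other immediate early genes 40 were tested, and 11 rose, 0 fell and 29 did not pass in the HOXD13 comparison, against 2.46% of all genes called higher and 7.04% called lower. The median log2 fold change of the 40 was 0.68, beside -0.02 over all probe sets. FOS, the AP-1 subunit, rose by 2.58 (SE 0.61, adjusted p = 0.0226), MYC, a driver of growth, by 1.65 (adjusted p = 0.0448), the small MAF factor MAFF by 1.65 (adjusted p = 0.0124), and RGS2, a regulator of G protein signalling, by 1.47 (adjusted p = 0.00504). Shifts in clone c were 0.23 for FOS, -0.19 for MYC, 0.50 for MAFF and 0.58 for RGS2. The list median was 0.72 for the HOXD13 mix, 1.06 for clone a, 1.09 for clone b and -0.11 for clone c. Without clone c 28 of the 40 were called higher and 1 lower (18.5% and 16.1% of all genes). In the HOXD9 comparison 0 of the 40 passed, with a median of 0.13 and 0.00967% of all genes called higher.

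Relatives of the members were few. EGR4 and NR4A3 lay at the floor and were not tested. The EGR corepressor NAB2 had shifts of 0.62 for the HOXD13 mix, 0.68 for clone a, 0.38 for clone b and -0.48 for clone c (log2 fold change 0.30, adjusted p = 0.424). Of the 3 genes tested among EGR4, WT1, NAB1 and NAB2, 0 passed (2.46% of all genes higher, 7.04% lower), with a median of 0.08. NR4A2, a nuclear receptor close to NR4A1, had 0.88, 1.08, 1.12 and 0.10 in these lines (log2 fold change 0.80, adjusted p = 0.0672). Without clone c both passed, NAB2 with 0.56 (adjusted p = 0.00125) and NR4A2 with 1.03 (adjusted p = 0.00184). NAB1, with -0.05 (adjusted p = 0.904), and WT1, with -0.006 (adjusted p = 0.974), did not. So 1 of the 3 tested EGR relatives and corepressors was called higher, where 18.5% of all genes were. In the list of IER5L and the SERTAD genes 1 of 3 tested genes rose, where 2.46% of all genes did. It was SERTAD1, a transcriptional coregulator that also binds CDK4 (log2 fold change 2.65, SE 0.71, adjusted p = 0.0379). Without clone c 3 of 3 rose (18.5% of all genes). SERTAD1 had shifts of 3.24 for the mix, 3.67 for clone a, 3.90 for clone b and -0.21 for clone c.

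Of 13 ERK feedback genes 9 were tested, and 1 rose, 0 fell and 8 did not pass, against 2.46% of all genes called higher and 7.04% called lower. DUSP6, a phosphatase that inactivates ERK, rose (adjusted p = 0.0314), with shifts of 0.87 for the HOXD13 mix, 1.19 for clone a, 1.75 for clone b and 0.18 for clone c. Over the list the median shift was 0.39 for the HOXD13 mix, 0.83 for clone a, 0.92 for clone b and -0.15 for clone c. Upstream regulators numbered 25, among them SRF, its cofactors, CREB1 and the kinases of the ERK cascade. Of these 22 were tested and 0 were called in either direction (2.46% of all genes higher, 7.04% lower), with a median of -0.01. Without clone c 7 of the 9 feedback genes were called higher, and 3 of the 22 regulators were called higher and 1 lower, where 18.5% of all genes were called higher and 16.1% lower. SRF itself had a log2 fold change of 0.13 (adjusted p = 0.703) and ELK1, an ETS partner of SRF, had 0.01 (adjusted p = 0.993).

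**Figure D5:**
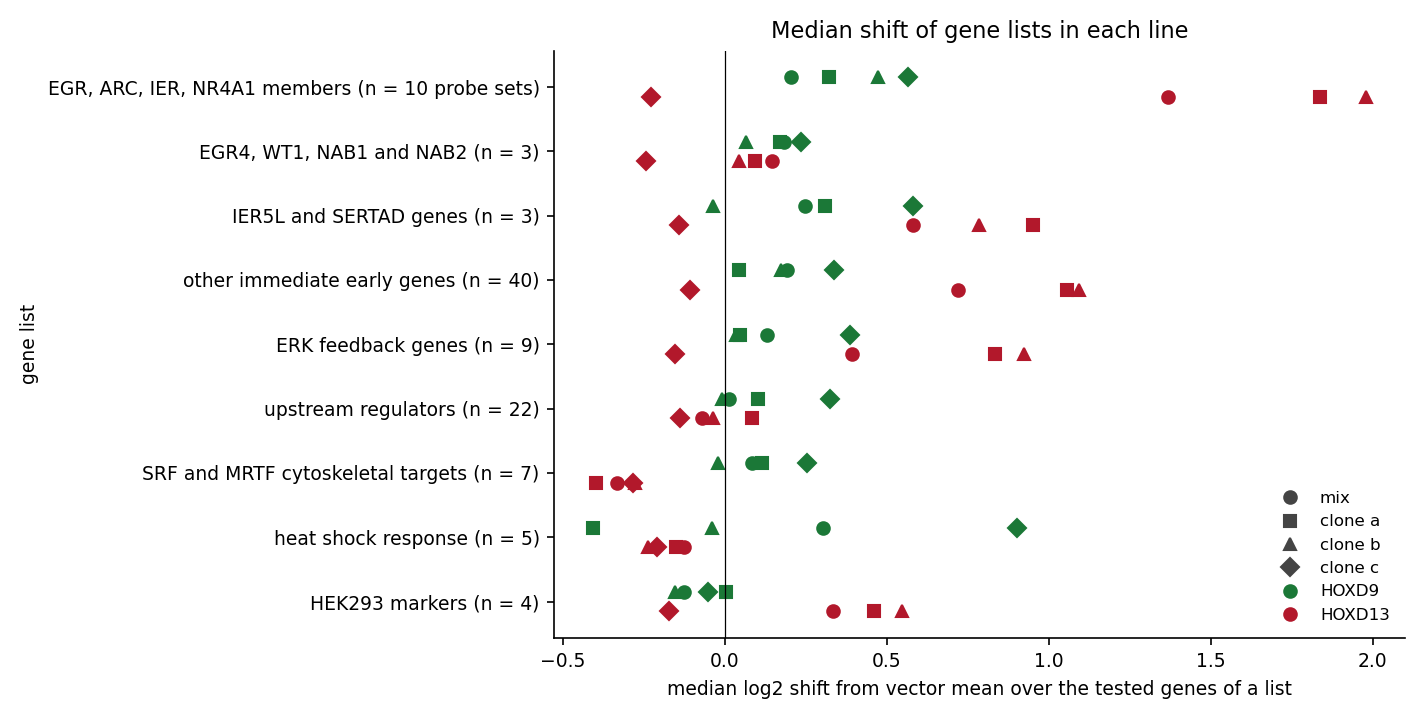
The median log2 shift from the vector mean (x axis) is plotted for each HOX line, for the 10 member probe sets and for gene lists (y axis) with at least 3 tested genes; colours mark the HOX gene and symbols the line. The members reach 1.98 in HOXD13 clone b and the 40 other immediate early genes reach 1.09, while the 22 upstream regulators stay between -0.14 and 0.08 in the HOXD13 lines.

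Genes whose HOXD13 line shifts were closest to a member were ranked by the mean absolute difference of the 4 shifts among 10342 genes. This is a description of 4 arrays, with no test. Closest to EGR1 were CXCR4, a chemokine receptor (0.06), CCND1, cyclin D1 (0.08), and METRNL, a secreted protein (0.09). Closest to IER2 were CSNK1E, a casein kinase (0.04), SCO2, an assembly factor of cytochrome oxidase (0.07), and MED26, a Mediator subunit (0.07). Closest to EGR3 were SHLD1 (0.09), PIM2, a serine kinase (0.09), and CCND1 (0.09). Closest to IER3 were ZCCHC12 (0.13), GMEB1 (0.16) and GADD45B, a stress-induced gene (0.16). For ARC no gene came near: the first were SERTAD1 (0.72), MIR7-3HG (0.92) and FOS (0.93), each below ARC in clone b. FOS and GADD45B are in the list of other immediate early genes.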

How the data were processed

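Expression was measured on 14 Affymetrix arrays from total RNA. The authors deposited log2 expression values made with GCRMA, per the submitters' processing notes, a method that models background from each probe's bases, quantile normalizes and summarises per probe set. That the scale is log2 was read from the values, the lowest being 1.83. The GCRMA version is not given in the sources used here, nor is a genome build. Sorted values were identical within 0.00102 over the HA set and 0.00195 over the V5 set, with 75th percentiles of 6.27 and 7.02. Arrays carry no depth; their number limits the precision.

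Gene names came from the platform annotation of 2016, updated through RefSeq (GRCh38.p14): 41043 of the probe sets with 1 gene matched. Control probe sets (62) were left out and 19816 probe sets were tested. limma 3.58.1 (R 4.3.3; lmFit, eBayes) fitted the means of the 4 groups to the 14 arrays together (10 residual degrees of freedom, prior 3.01), two-sided, with Benjamini-Hochberg adjustment over all probe sets tested. All adjusted p-values are from limma. The median SD per probe set was 0.28 in HOXD9 lines, 0.05 in HA vectors, 0.27 in HOXD13 lines and 0.06 in V5 vectors, while the model assumes 1 spread. The members, lists and contrasts were chosen with earlier results of these data known. Named were all member probe sets and up to 4 called genes with the largest change in a list. The 3 nearest genes of each member with a shift of at least 1 in a HOXD13 line were named too. Other list genes named (NAB1, NAB2, WT1, NR4A2, EGR4, NR4A3, SRF, ELK1, VIM) were picked with their values in view. Simulated data served to test the code. Other settings are given in the closing section. Figures used matplotlib 3.10.9 in Python 3.11.15.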

Additional observations from a re-analysis of the deposited data

Results flagged for a closer look

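Among 20 groups of 4 lines examined over the member probe sets, 2 had a line whose gap to its nearest neighbour, as a share of the range, passed the critical value of Dixon's test at 95%, where chance gives about 1 in 20. HOXD13 clone c was the lowest line with a gap of over 0.5 of the range in 8 of the 10 HOXD13 groups, and IER2 alone of these passed the critical value. The EGR1 probe set 227404_s_at read 5.60 in HOXD9 clone c, above 5.06, 4.97 and 5.02 in the HOXD9 mix and clones a and b, with a gap of 0.847 of the range. The other EGR1 probe sets were highest in clone b. IER2 read 9.77 in HOXD13 clone c, below 11.54, 11.65 and 11.91 in the HOXD13 mix and clones a and b, a gap barely past the critical value.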

How the results depend on the processing

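No paired analysis was possible because the HOX lines are a mix and clones with no replicate numbers, and only the 2 vector groups, which were not compared, share numbers. In the HOXD13 comparison 1 member was called, and 0 were called with no filter (11 probe sets, 1112 of all probe sets called), with a filter of 6 on at least 4 arrays (5 probe sets left, ARC not among them) and with the 7 arrays of the tag set alone. The count was 7 with array weights by group and 7 with the ACTB difference as covariate. Over the 7 probe sets that passed the filter without the HOXD13 lines, it was 5 with either setting. Calls over all probe sets were 1721, and 2898 with the weights and 4454 with the covariate. Leaving out 1 array gave 0 to 7 member calls for HOXD13 (371 to 6496 of all probe sets), 0 to 2 for HOXD9 and 0 to 7 for the difference of effects, each maximum without HOXD13 clone c. The difference of effects had 1 call with array weights and 2 with the covariate, and 0 with either over those 7 probe sets. Using 1 probe set per gene, the mean of the probe sets of a gene, centring, joint quantile normalization and a trended prior left all 3 counts as they were, and centring and joint normalization left the line counts as they were. Directions turned only for values that never passed. With the covariate the HOXD9 effect was -0.30 for EGR3 and -0.34 for ARC. With 1 array left out, the HOXD9 effect ran from -0.24 to 0.0625 for IER5, positive without HOXD9 clone a, and from -0.018 to 0.21 for the NR4A1 probe set 211143_x_at, negative without HOXD9 clone c. The difference of effects of that probe set ran from -0.13 to 0.11, with 0.11 without HOXD9 clone c and 0.00 without HOXD13 clone c. The cause of these changes was not tested.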

Other observations

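Cytoskeletal targets of SRF and its MRTF cofactors, which SRF controls apart from the immediate early genes, were also listed. Of 12 such genes 7 were tested, and 0 rose, 2 fell and 5 did not pass, against 2.46% of all genes called higher and 7.04% called lower. ACTA2, an actin of smooth muscle, fell by 1.46 on the log2 scale (SE 0.18, adjusted p = 0.00127), with shifts of -1.49 for the HOXD13 mix, -1.73 for clone a, -1.72 for clone b and -0.88 for clone c. TPM4, a tropomyosin, fell by 0.68 (SE 0.13, adjusted p = 0.00887), with -0.58, -0.75, -0.82 and -0.58 in these lines. Without clone c 4 of the 7 fell, where 16.1% of all genes did. In both genes clone c moved in the direction of the other lines. The list median was -0.33 for the mix, -0.40 for clone a, -0.28 for clone b and -0.29 for clone c.

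Of 8 heat shock genes 5 were tested and 0 were called in the HOXD13 comparison, against 2.46% of all genes called higher and 7.04% called lower. Without clone c 2 were called higher, against 18.5% of all genes. The list had medians of -0.12 for the mix, -0.15 for clone a, -0.24 for clone b and -0.21 for clone c. DNAJB1, a cochaperone, had shifts of 0.88, 1.16, 1.48 and -0.42 in these lines, the order of the members, and its log2 fold change was 0.78 (adjusted p = 0.241); it was picked out after its values were seen.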
